A study of Mus musculus with 18 samples.

Results

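The response to lipopolysaccharide (LPS) was measured here in macrophages that had already been exposed to (+)-JQ1, a small molecule that occupies the bromodomains of the BET proteins, called JQ1 below. The 6 libraries compared are the 3 of JQ1-pretreated cells stimulated with LPS (LPS + JQ1) and the 3 of JQ1-pretreated cells that received PBS (JQ1), chosen by their labels from 18 libraries in all. The cells were bone marrow derived macrophages of Il10-/- mice on the C57BL/6J background, grown for 6 days in medium with L929-conditioned medium. The methods of the study describe the donors as 12-week-old males, and 3 mice gave the bone marrow, with 3 libraries in each condition. JQ1 cells received 500 nM JQ1 for 12 h and then PBS for a further 4 h, and LPS + JQ1 cells received the same pretreatment and then 50 ng/mL LPS for 4 h. The comparison groups without JQ1, unstimulated (PBS for 4 h) and LPS (50 ng/mL for 4 h), are labelled untreated for the first 12 h, while the methods describe a vehicle. Every group lacked a functional Il10 gene, so no group shows how wild-type macrophages respond, and 1 time point after LPS was sampled.

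LPS, a component of the outer membrane of Gram-negative bacteria, is bound by the TLR4 and MD-2 complex on macrophages. The adaptor MyD88 passes the signal to NF-kB and the MAP kinases, and the adaptor TRIF passes it to IRF3, interferon beta and, through the interferon receptor and STAT proteins, to a second set of interferon-stimulated genes. BET proteins read acetylated histones and help to bring the elongation factor P-TEFb to promoters and enhancers, and many inflammatory genes have been studied as their targets. IL-10, which these cells cannot make, is the cytokine that normally restrains this response.

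The 6 libraries held 13126919 to 15447770 expected counts each, over 24485 listed genes, of which 15470 had a count in at least one of the 6 and 9015 were at 0 in all of them. All 10 macrophage markers examined were present, with summed normalised counts of 267070 to 281699 in the JQ1 libraries and 243734 to 257629 in the LPS + JQ1 libraries. Markers of other cells summed to far less: neutrophil genes to 33.5 to 79.7 (JQ1) and 68.5 to 151 (LPS + JQ1), with Ly6g and Mpo at 0, dendritic cell genes to 6.05 to 25.6 and 41.1 to 49.7, with Cd209a at 0, stromal and endothelial genes to 275 to 430 and 117 to 406, and B cell, T or NK cell and erythroid genes to at most 11.1 in any library. The part of these cells in the results was not tested. In bulk RNA, fewer cells of a kind and less RNA per cell cannot be told apart. Among the groups without JQ1, unstimulated replicate 1 stood apart: it was the highest of its 3 libraries in 35 of 35 interferon-stimulated genes, with a summed normalised count of 22649 for them against 11505 and 12848, and the results that rest on it are given with and without it.

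Il10 itself, at chr1:132916422-132921551 (mm9, plus strand), kept a low level of reads. Its normalised counts were 60.5, 43.4 and 34.8 in the JQ1 libraries and 118, 142 and 164 in the LPS + JQ1 libraries, a log2 fold change of 1.60 ± 0.21 (SE, n = 3 and 3) with an adjusted p of 2.33e-13. Without JQ1 the counts were 37, 27.1 and 33.5 before and 53.7, 61 and 74.9 after LPS. The sources used here do not say which part of the gene the allele removes, so these reads check no genotype.

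In JQ1-pretreated cells LPS still changed the transcriptome broadly. Of 13686 genes tested, 3783 (27.6%) were higher and 4242 (31%) were lower in LPS + JQ1 than in JQ1 (DESeq2 Wald test, Benjamini-Hochberg adjusted p under 0.05, 3 libraries against 3). With a change of over 2-fold required, 1555 genes (11.4%) were higher and 1804 (13.2%) were lower. Without JQ1, in LPS against unstimulated cells, 4728 genes (31.6%) were higher and 4928 (32.9%) were lower out of 14965 tested. The difference between both responses was tested directly, as an interaction, and the pair of responses shares no library. It passed for 5279 of 12727 genes, with the response more positive with JQ1 for 2250 (17.7%) and more negative for 3029 (23.8%). Without replicate 1 in any of the groups, the count of 5279 fell to 3471.

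How many genes count as higher or lower depends on the scaling, and LPS moved a large part of the RNA. Genes induced over 2-fold without JQ1 took 17.4% ± 1.02 of the counts in unstimulated cells and 54.6% ± 1.42 with LPS (SD, n = 3), and 15.4% ± 0.572 with JQ1 and 41.7% ± 0.259 with LPS + JQ1. The precursor ribosomal RNA gene Rn45s took 10.9% to 12.5% of counts in the JQ1 libraries and 7.11% to 7.92% in the LPS + JQ1 libraries. Median-of-ratios factors set the median log2 change of 11390 expressed genes near 0, at -0.05 with JQ1 and -0.03 without. Scaling by total counts moved those medians to -0.42 and -0.96, and moved the median difference between the responses from -0.05 to 0.50. The split of the calls moved with it, from 3783 higher and 4242 lower to 2274 (16.2%) and 6599 (47.1%) under total-count scaling, and to 4031 and 3954 under TMM factors. The split of the differences went from 2250 higher and 3029 lower to 5964 and 1023 under total-count scaling and to 2888 and 2390 under TMM. Values below are on the median-of-ratios scale, so each is a change relative to the typical gene, and directions that total-count scaling turned past its threshold are given beside the named genes.

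**Figure D1:**
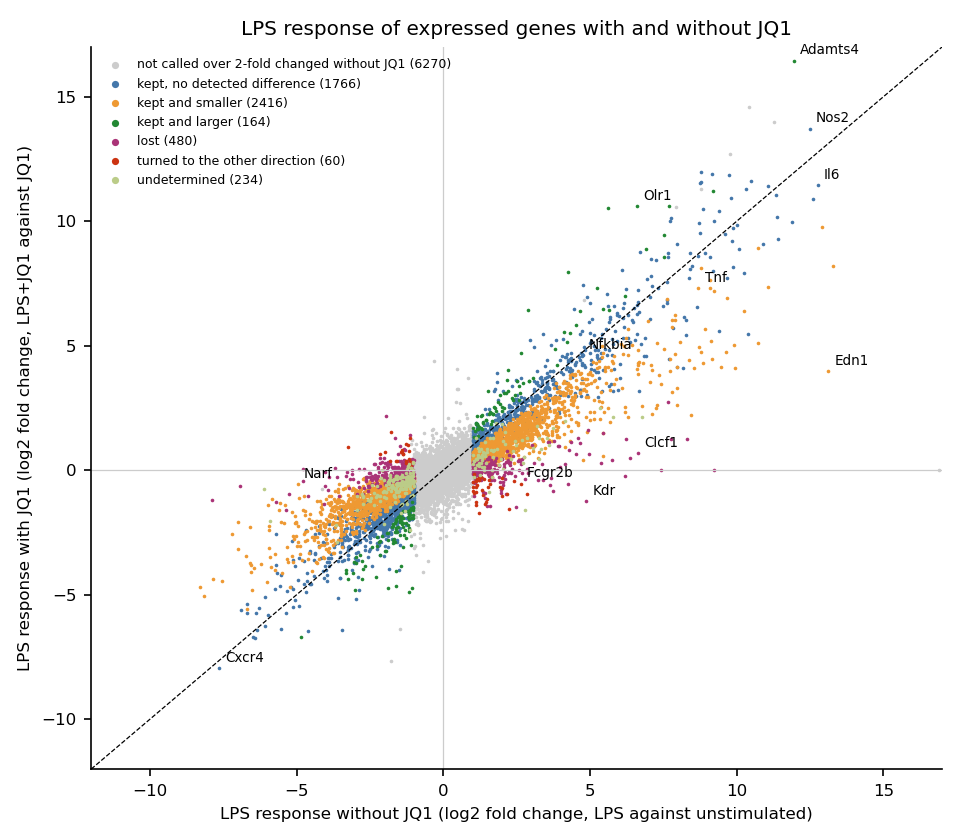
Each point is 1 of 11390 expressed genes, with its LPS response without JQ1 (log2 fold change, LPS against unstimulated) on the horizontal axis and with JQ1 (LPS + JQ1 against JQ1) on the vertical axis, coloured by what became of its response; the dashed line marks equal responses. Most genes induced without JQ1 lie above 0 and below the line, while a smaller group that includes Clcf1 lies near 0 on the vertical axis, and Kdr lies below 0.

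The largest rises were ranked by log2 fold change among genes whose normalised count averaged 100 or more in the 6 libraries. Most started from almost no reads after JQ1 alone, so their fitted folds are not determined and a ratio of group sums, with an interval for counting error only, is given where JQ1 cells held 1 to 3 counts. Where they held none, the least fold that a floor of 3 counts per library allows is given.

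Adamts4, a protease that cleaves aggrecan (chr1:173180552-173190768, mm9, plus strand), stood at 0.865, 0 and 0 in the JQ1 libraries and at 33663, 24481 and 30705 with LPS, a ratio of 96629 (95% interval 17343 to 3816640.0). Nos2, which makes nitric oxide (chr11:78734289-78773756, plus strand), went from 1.73, 0 and 0.916 to 12318, 11912 and 13035, a ratio of 13509 (95% interval 4623 to 65506). LPS + JQ1 libraries were above every JQ1 library by orders of magnitude in both genes. Among the chemokines, Ccl7 rose from 3.46, 0 and 2.75 to 6096, 6579.7 and 7695 (log2 11.63 ± 0.58, adjusted p = 1.53e-86). Cxcl1, a neutrophil attractant, went from 0, 0 and 2.75 to 2939.8, 2071 and 2488, and Cxcl9, an interferon-gamma inducible T cell attractant, from 0.865, 0.986 and 0 to 1620.1, 2159 and 1883. Their ratios were 2719 (95% interval 930.2 to 13182) and 3079 (95% interval 852 to 25425). Ccl22, a ligand of CCR4, had no count in the JQ1 libraries and 772, 532 and 718 with LPS, at least 244-fold higher. The cytokine Il6, also without a count in JQ1 cells, reached 522, 488 and 428, at least 173-fold higher. The 3 remaining genes of the 10 were Oasl1, an interferon-stimulated gene that went from 0.865, 0 and 1.83 to 3205, 3727 and 3351 (ratio 3728 (95% interval 1276 to 18075)), Mab21l3, from 0 to 589.7, 591 and 739.8 (at least 231-fold), and Heatr9, from 0 to 445, 533 and 512 (at least 179.5-fold).

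Several genes of the same kind received no adjusted p from DESeq2, which withholds it where a library holds an outlying count. They are named after their values were seen. The immunometabolic enzyme gene Acod1 stood at 3.46, 0.986 and 0 in JQ1 cells and at 36817, 38656 and 35765 with LPS, the interferon-inducible chemokine Cxcl10 at 5.19, 5.91 and 3.66 and then 78438, 81381 and 78046, and the guanylate-binding protein Gbp5 at 9.51, 5.91 and 7.33 and then 49346, 50179.9 and 50926.6. In edgeR's quasi-likelihood test their log2 fold changes were 14.51, 13.99 and 12.70 (adjusted p = 1.40e-10, 1.55e-13 and 2.95e-13). None of these groups overlapped.

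The largest falls went from clear expression to a few counts. Cxcr4, the receptor of the chemokine CXCL12 (chr1:130484776-130488870, mm9, minus strand), fell from 5951, 6817 and 5719 to 15.5, 33.7 and 25.9, a log2 change of -7.94 ± 0.20. Lhfpl2 went from 2203, 2395 and 2066 to 16.6, 29.5 and 14.8 (-6.75 ± 0.21) and Cd300lb, an activating receptor of myeloid cells, from 3510.3, 3566 and 3819 to 37.5, 43.2 and 46.8 (-6.42 ± 0.17). Even the highest LPS + JQ1 library was far below the lowest JQ1 library in these 3 genes. Abcd2, a peroxisomal transporter of very long chain fatty acids, fell from 784, 810.3 and 699.7 to 9.94, 13.7 and 6.15 (-6.24 ± 0.33), and Arrdc3, an arrestin-domain protein, from 2099.8, 2295 and 2093 to 39.8, 42.1 and 34.5 (-5.79 ± 0.17). Lyl1, a haematopoietic transcription factor, fell from 637, 636 and 637 to 7.73, 14.7 and 13.5 (-5.73 ± 0.27). The other 4, Rnf144b, Fam214a, Slc26a11 and Fbxo32, fell by log2 changes of -6.70 ± 0.61, -5.75 ± 0.24, -5.71 ± 0.30 and -5.60 ± 0.42. The largest adjusted p among the 10 was that of Rnf144b, 2.82e-27. The difference between both responses passed in 1 of the 10, Rnf144b, whose fall was larger with JQ1 (-1.87 ± 0.68, adjusted p = 0.0175), a call that was lost without replicate 1 (-0.996) and turned to 0.42 in limma on log2(TPM + 1).

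**Figure D2:**
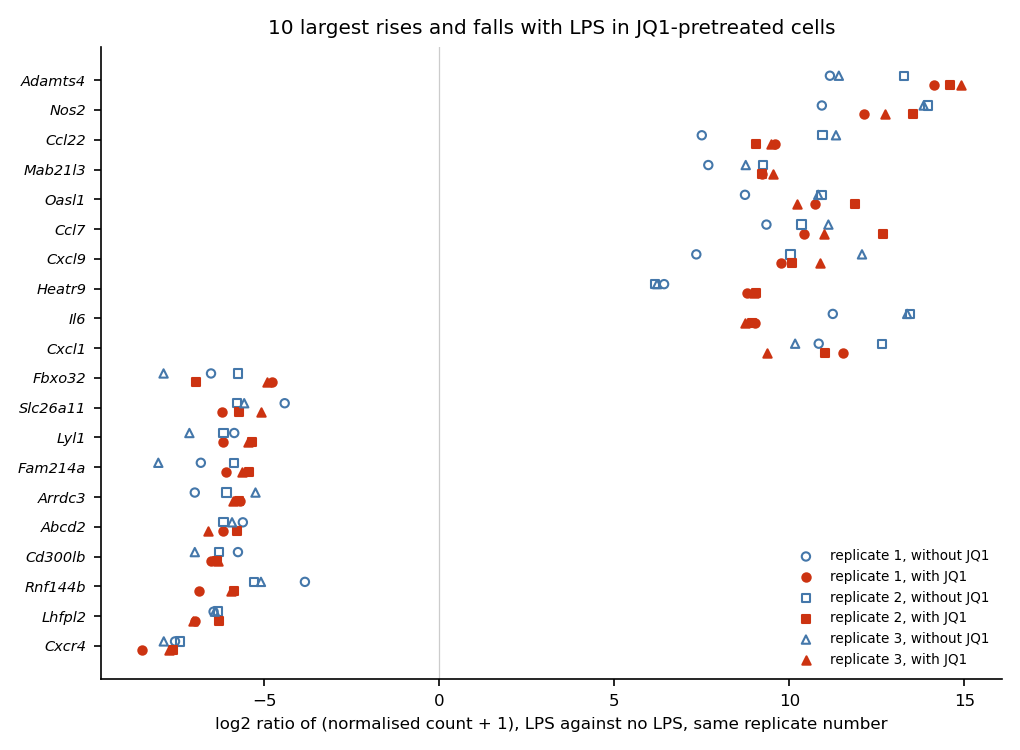
The log2 ratio of normalised count plus 1, LPS against no LPS at the same replicate number, for the 10 largest rises and 10 largest falls in JQ1-pretreated cells; filled symbols are with JQ1 and open symbols without, and the symbol's shape gives the replicate. The choice of genes required 1 direction in every filled pair, and for Heatr9 every filled point is to the right of every open one.

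The genes of the pathway were then read by their roles, from the receptor inwards. Of 20 genes for the TLR4 complex, its adaptors and kinases, 14 rose and 4 fell in JQ1-pretreated cells (27.6% and 31% of all genes), with a median log2 response of 0.68. The same shares are the measure for the counts of each list below. Tlr4, the receptor, fell from 525, 455 and 481 to 109, 140.1 and 128 (-1.95 ± 0.21, adjusted p = 4.01e-19), and by -1.17 ± 0.20 without JQ1. The difference of -0.78 ± 0.29 (adjusted p = 0.0213) lost its call in edgeR, under TMM (-0.65) and total-count scaling (-0.23), in limma and without any of 4 single libraries, LPS replicate 3 (-0.48) among them. Myd88, the adaptor, rose from 624, 566 and 631 to 2659, 2661 and 2810.3 (2.16 ± 0.08) and Irak2, the kinase that sustains its signal, from 844, 769.9 and 794 to 5662, 5069.6 and 5359.7 (2.74 ± 0.08). The JQ1 and LPS + JQ1 libraries did not overlap in Tlr4, Myd88 or Irak2, and both rises were smaller than without JQ1, where the log2 changes were 3.38 ± 0.07 and 3.53 ± 0.08. Ikbke, a kinase of the IRF3 branch, rose by 2.47 ± 0.13 against 3.47 ± 0.12. The difference passed as lower in 12 of the 20 genes and as higher in 3, against 23.8% and 17.7% of all genes. Total-count factors gave 6 and 6, against 7.65% and 44.6% of all genes. The counts thus rest on the scaling, while the share passing as lower was above that of all genes with both.

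Other pattern recognition receptors had a median response of 2.30 with JQ1 and 3.59 without, and 14 of 21 rose and 3 fell. Nlrp3, the sensor of the inflammasome, went from 47.6, 48.3 and 38.5 to 3627, 3962 and 4142, and its fold was larger than without JQ1 (6.45 ± 0.15 against 5.64 ± 0.10, difference 0.81 ± 0.18, adjusted p = 3.86e-05). It started from a baseline that JQ1 had lowered, 44.8 ± 5.48 against 729 ± 110.1 (SD, n = 3), and its level after LPS was still 3910.2 ± 262 against 36641 ± 1358. Ifih1, which senses double-stranded RNA, rose by 5.03 ± 0.15 with JQ1 and 6.43 ± 0.14 without. Clec4e, a C-type lectin, rose from 77.8, 39.4 and 35.7 to 3873, 4416 and 3319, while its neighbour Clec4d stood at 876, 895 and 713 and 798, 1012 and 702, overlapping (0.02 ± 0.13, and -0.35, called as lower, under total-count scaling), where it had risen by 1.48 ± 0.13 without JQ1 (difference -1.46 ± 0.18, adjusted p = 1.64e-14). The difference passed as lower in 15 of the 21 genes and as higher in 1 (23.8% and 17.7% of all genes). Under total-count scaling it passed in 11 and 3 (7.65% and 44.6% of all genes).

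NF-kB subunits and IkB proteins had a median response near that without JQ1, and some members responded less. All 11 rose with JQ1 and without it, with medians of 3.83 and 4.02, and the same count rose under total-count scaling. The difference passed as lower in 4 of the 11 and as higher in 1 (23.8% and 17.7% of all genes). Under total-count scaling it passed in 2 and 5 (7.65% and 44.6% of all genes). During LPS 7 of the 11 were lower with JQ1 than without, against 4718 of 14326 genes in all. Nfkbia, which encodes the inhibitor IkB-alpha, went from 1379, 1154 and 1362 to 32279, 29707 and 33016, and from 1534, 1082 and 1111 to 35014, 34362 and 30719 without JQ1. Its log2 changes of 4.61 ± 0.11 and 4.74 ± 0.12 differed by -0.14 ± 0.16 (adjusted p = 0.541), a difference that total-count scaling turned to 0.42 and that passed at -0.31 without unstimulated replicate 1. Nfkb1, the p105 subunit gene, rose by 4.06 ± 0.09 against 4.17 ± 0.09, and Nfkbie by 4.13 ± 0.16 against 4.31 ± 0.15. Nfkbiz, a nuclear co-regulator needed for a set of secondary genes, had been raised by JQ1 alone (1214 ± 211 against 487 ± 139.7). Its response was smaller with JQ1, 4.04 ± 0.18 against 5.73 ± 0.18 without (difference -1.69 ± 0.25, adjusted p = 2.16e-10).

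Feedback inhibitors also rose, 17 of 23 with JQ1 and 20 without, at medians of 2.02 and 2.52. A lower difference passed in 8 of the 23 and a higher one in 6 (23.8% and 17.7% of all genes). Total-count factors gave 5 and 7 (7.65% and 44.6% of all genes). Socs3, which blocks cytokine receptor signalling, went from 45.8, 35.5 and 36.6 to 17531, 15259 and 17804 (8.74 ± 0.53 against 8.42 ± 0.53 without JQ1). Socs1 rose from 31.1, 43.4 and 34.8 to 2692, 2495 and 3059, by 6.24 ± 0.34 against 7.89 ± 0.35, and Cish from 4.32, 1.97 and 2.75 to 527, 454 and 496. The phosphatase Dusp2 rose by 6.86 ± 0.13 against 7.61 ± 0.14 (difference -0.75 ± 0.19, adjusted p = 3.94e-04, and -0.19 with the call lost under total-count scaling). Dusp1, the phosphatase of p38 and JNK, stood at 701, 679 and 876 with JQ1 and 632, 740.3 and 907 with LPS + JQ1, overlapping, with a log2 change of 0.01 ± 0.14 that total-count scaling turned to -0.36.

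Of 22 immediate early transcription factors, 10 rose and 5 fell with JQ1 (27.6% and 31% of all genes). Their median was 0.62 against 0.66 without. Junb rose from 2586, 2659.6 and 2623 to 14259.5, 12694 and 15319.5 (2.43 ± 0.13, against 2.52 ± 0.13 without JQ1). Its partners went the other way: Fos fell from 695, 657 and 691 to 77.3, 97.9 and 111 (-2.84 ± 0.18) and Fosl2 from 1841, 2057 and 1889 to 182, 182 and 191 (-3.38 ± 0.13). The fall of Fosl2 was -0.91 ± 0.11 without JQ1, a difference of -2.47 ± 0.17 (adjusted p = 1.33e-45). Klf2, an anti-inflammatory factor of the same list, was at 291, 345 and 359.9 and 328, 315 and 347, with no detected response (-0.01 ± 0.13, and -0.38, called as lower, under total-count scaling), where it fell by -1.31 ± 0.18 without JQ1.

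Cytokines were the list, beside the chemokines, with the largest responses: 21 of 26 rose, at a median log2 of 5.10 with JQ1 and 6.77 without. As for the difference, 8 of 25 cytokines passed as lower and 2 as higher, against 23.8% and 17.7% of all genes. With total-count factors 4 and 3 passed, against 7.65% and 44.6% of all genes. Tnf rose from 271, 180.4 and 223 to 35589, 34387 and 37076, and from 447, 242 and 297 to 145049, 136379 and 129045 without JQ1. Its log2 response was 7.31 ± 0.26 with and 8.69 ± 0.26 without JQ1, a difference of -1.39 ± 0.36 (adjusted p = 5.52e-04). Il12b, the p40 subunit shared by IL-12 and IL-23, went from 3.46, 0 and 0 to 2172, 2092 and 2574 with JQ1 and from 18.5, 1.69 and 0 to 42189, 38525 and 48725 without. Its responses of 10.90 ± 1.24 and 12.60 ± 1.05 were not shown to differ (-1.70 ± 1.63, adjusted p = 0.428), and both started from a few counts, while its level during LPS was lower with JQ1 (log2 -4.24 ± 1.00, adjusted p = 6.32e-05). Without unstimulated replicate 1, the highest of its baseline libraries, the difference of Il12b was -5.45 (adjusted p = 0.0047), and limma on log2(TPM + 1) called it at -3.60. Il6 and Il1a had the same shape: Il6 reached 479 ± 47.5 with and 14163 ± 3262 without JQ1, and Il1a 3215 ± 183 and 54796 ± 14315 (SD, n = 3). The p35 subunit Il12a was almost silent with JQ1, at 0 before and 6.63, 7.37 and 3.69 after LPS, against 1017, 1024 and 999 with LPS alone (difference -5.59 ± 1.78, adjusted p = 0.00573), a difference that did not pass in edgeR (-4.66, adjusted p = 0.971). Il7 rose more steeply with JQ1, reaching 254 ± 5.2 with JQ1 from no count, at least 91.8-fold higher, and 172 ± 28.8 without JQ1 from 3.53 ± 0.283. Tgfb1 stood at 9288, 9195 and 9516 and 10724, 9242 and 11346, with a change of 0.16 ± 0.10 that total-count scaling turned to -0.21.

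Of 11 CC chemokines tested, 9 rose and 1 fell, at a median of 7.63 with JQ1 and 8.75 without, and of 10 CXC chemokines 7 rose, at 6.59 and 7.63. A lower difference passed in 7 of the 11 and 2 of the 10, and a higher one in 0 and 1 (23.8% and 17.7% of all genes). With total-count factors a lower one passed in 3 and 1, and a higher one in 2 and 1 (7.65% and 44.6% of all genes). Ccl2, the monocyte attractant, reached about the same level in both conditions, 9721 ± 1045 with and 10379.8 ± 2162 without JQ1, with responses of 9.53 ± 0.40 and 8.75 ± 0.37 (difference 0.77 ± 0.54, adjusted p = 0.259, and 1.32 with an adjusted p of 0.0368 under total-count scaling). Ccl4 rose from 149, 74.9 and 112 to 30799.6, 30649 and 32504, by 8.12 ± 0.18 against 8.79 ± 0.17 (difference -0.67 ± 0.25, adjusted p = 0.019, with the call lost at -0.54 under TMM and -0.12 under total-count scaling). Ccl12 reached 39.4 ± 6.42 with JQ1 and 1719 ± 343 without, and Ccl24, the eotaxin 2 gene, stood at 2.59, 4.93 and 5.49 and 6.63, 6.32 and 4.92 with JQ1, overlapping, where it had gone from 1.54, 6.77 and 2.01 to 191, 202 and 274 without. Cxcl3 went from 0 to 312, 183 and 194, at least 83-fold higher, and Cxcl11 from 0, 0.986 and 0 to 295, 380.2 and 308. Pf4, the platelet factor 4 gene that macrophages also express, did not pass, at 559, 574 and 515 and 642, 617 and 586 (0.17 ± 0.08, adjusted p = 0.0533), and turned to -0.21 under total-count scaling.

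**Figure D3:**
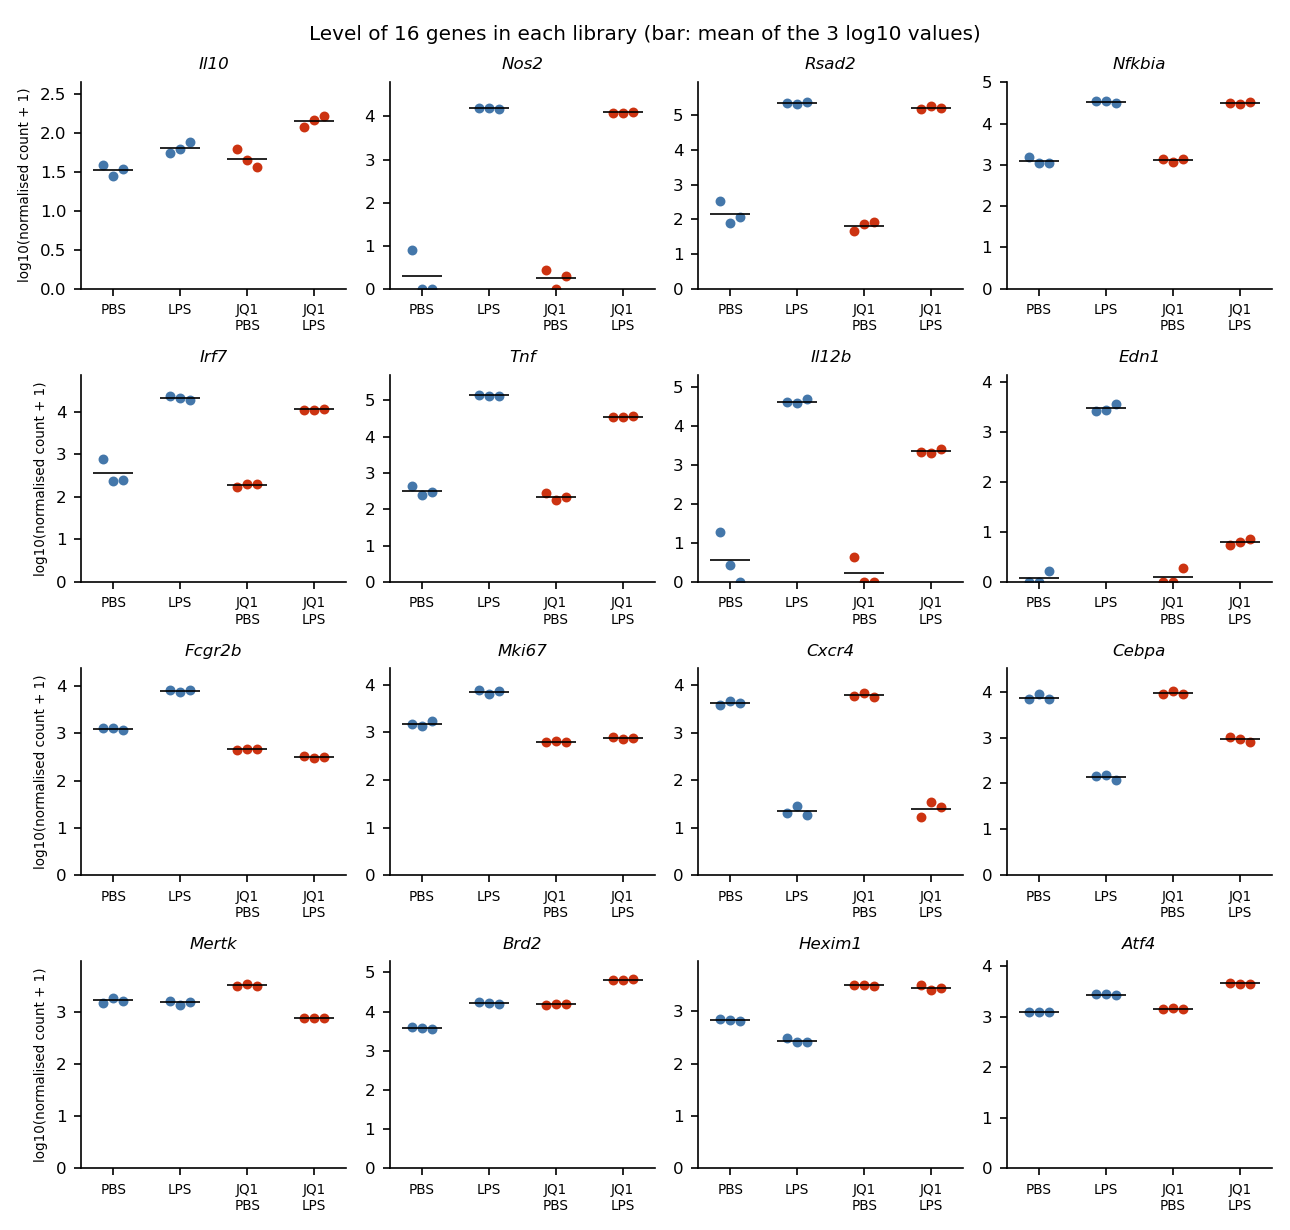
Level of 16 genes in each library, as log10 of normalised count plus 1, for PBS and LPS without JQ1 (blue) and with JQ1 (red), with 3 points a group and a bar at the mean of the 3 log10 values. Nfkbia ends at about the same level with and without JQ1, Il12b and Tnf end lower with JQ1, Edn1 stays far below its level with LPS alone, and Fcgr2b and Mki67 stay near or below their JQ1 baseline.

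Interferon, IRF and STAT genes rose in 17 of 21 cases with JQ1, at a median of 1.19 against 2.12 without. Stat5a went from 438, 415 and 475 to 9138, 8874 and 9631, and its responses of 4.38 ± 0.09 and 4.35 ± 0.10 differed by 0.02 ± 0.13 (adjusted p = 0.911). Irf7, which amplifies type I interferon, rose from 169.5, 196 and 199.7 to 11398, 11341 and 12056. Jak2 rose less than without JQ1, by 4.15 ± 0.11 against 5.30 ± 0.11 (difference -1.15 ± 0.16, adjusted p = 8.60e-12). Irf3, which is activated by phosphorylation, was at 584, 591 and 616 and 589.7, 499 and 574 (not called, and -0.48, called as lower, under total-count scaling). The difference passed as lower in 12 of the 21 genes and as higher in 1 (23.8% and 17.7% of all genes). Under total-count scaling it passed in 6 and 7 (7.65% and 44.6% of all genes).

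All 35 interferon-stimulated genes tested rose in JQ1-pretreated cells, as they did without JQ1, and all 35 rose under total-count scaling too. Rsad2, the antiviral enzyme viperin, went from 45, 70.0 and 81.5 to 151428, 180426 and 165342, near the 220936, 218747 and 246297 of LPS alone. Mx1 rose from 16.4, 5.14 and 8.51 to 21302, 25653 and 23042 and Ifi205 from 1.61, 0 and 0 to 1067, 1317 and 1189. The median response was 4.83 with JQ1 and 6.62 without, and JQ1 lowered the same genes at rest and during LPS by nearly equal medians, -1.96 and -1.99. The median difference between the responses was -0.09, with 3 genes higher and 8 lower (17.7% and 23.8% of all genes). It depends on unstimulated replicate 1: without that library it was -0.58, with 1 gene higher and 17 lower, and the median effect of JQ1 at rest was -1.44. Under total-count scaling, with every library, 11 were higher and 5 lower (44.6% and 7.65% of all genes).

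Of 15 effector enzymes, 12 rose and 2 fell with JQ1, at a median of 2.80 against 4.87 without. Ptgs2, cyclooxygenase 2, went from 12.1, 5.91 and 0.916 to 8464, 6587 and 7113, against 58382, 51102 and 72221 with LPS alone. Slc7a2, which imports arginine, rose by 4.29 ± 0.12 with and 6.64 ± 0.11 without JQ1 (difference -2.35 ± 0.16, adjusted p = 6.60e-47). Arg1 stayed at 1 count in all JQ1 and 2 in all LPS + JQ1 libraries together, too few to show a response.

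Costimulation, adhesion and antigen presentation genes rose in 14 of 20 cases with JQ1 and 18 without, at medians of 1.58 and 2.66. A lower difference passed in 8 of the 20 and a higher one in 3 (23.8% and 17.7% of all genes). Total-count factors gave 3 and 6 (7.65% and 44.6% of all genes). Cd40 rose from 25.1, 27.6 and 44.9 to 26670.3, 27020.3 and 29520.0 and the adhesion receptor Icam1 from 609.7, 419.9 and 486 to 57282, 48224 and 56657. Neither response was shown to differ from that without JQ1 (differences -0.13 ± 0.40 and 0.11 ± 0.26). Cd274, which encodes PD-L1, rose more with JQ1, by 7.01 ± 0.20 against 6.18 ± 0.19 (difference 0.83 ± 0.28, adjusted p = 0.00997, and 0.49 with the call lost without replicate 1, as it was without JQ1 replicate 3 or LPS replicate 2). Cd80, a ligand of CD28, was the opposite case: it stood at 10.4, 1.97 and 0.916 and 11, 12.6 and 2.46, overlapping, where LPS alone took it from 21 ± 7.93 to 328 ± 84.3 (difference -2.94 ± 0.73, adjusted p = 2.41e-04). This rests on JQ1 replicate 1: without it the response with JQ1 was 2.64 (adjusted p = 0.012) and the difference -1.27 (adjusted p = 0.35). H2-Aa, of MHC class II, was at 106, 69 and 90.7 and 102, 71.6 and 97.2, also overlapping.

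Receptors of bacterial products and of antibodies that the study discusses responded in unlike ways. Nod2 rose from 25.9, 39.4 and 47.6 to 434, 502 and 497 (response 3.67 ± 0.20 against 4.83 ± 0.17 without JQ1) and Tlr1 from 37.5, 18.6 and 32.4 to 195, 251 and 243 (2.95 ± 0.21 against 3.90 ± 0.15). Tlr6 rose by 1.11 ± 0.16 against 2.76 ± 0.13. In each of the 3 the difference passed as lower (-1.16 ± 0.27, -0.95 ± 0.26 and -1.66 ± 0.21), and of the 3 Tlr6 kept its call under total-count scaling. Fcgr1, the high-affinity IgG receptor, rose slightly from 206, 208 and 219.8 to 265, 320.1 and 320.1, by 0.51 ± 0.13 against 1.97 ± 0.10 (0.14 and not called under total-count scaling), far below its levels without JQ1, 2061 ± 363 and 8084 ± 174. Fcgr4 rose by 3.28 ± 0.40, about as without JQ1 (3.61 ± 0.14, difference -0.33 ± 0.43), but from 4.85 ± 1.75 in place of 147 ± 8.45. Fcgr2b, the inhibitory IgG receptor, turned its direction: it fell from 446, 466 and 473 to 337, 299.9 and 315 with JQ1 (-0.54 ± 0.09, adjusted p = 1.59e-08) and rose from 1315, 1285 and 1173 to 8011, 7389 and 8088 without (2.64 ± 0.07).

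Among homeostatic receptors and lipid genes, 5 of 23 rose and 15 fell with JQ1 (27.6% and 31% of all genes). Their median was -0.64 against -0.12 without. Mertk, the receptor that takes up dying cells, fell from 3207, 3532 and 3134 to 775, 775 and 789 (-2.08 ± 0.09), where its response without JQ1 was -0.12 ± 0.09 (difference -1.95 ± 0.13, adjusted p = 4.65e-47). JQ1 alone had raised it, from 1700.5 ± 185 to 3291 ± 212. Abca1, the cholesterol exporter, fell by -2.87 ± 0.10 against -1.63 ± 0.10, from a baseline that JQ1 had raised to 20832 ± 1472 from 11306 ± 412. Apoe (257063, 284745 and 270172 and 260531, 219642 and 244895) and the scavenger receptor Cd36 (11077, 11723 and 11479.9 and 6181, 9782 and 7469.6) did not pass, but both passed as lower under total-count scaling (-0.54 and -0.92). The difference was lower in 12 of the 23 and higher in 2 (23.8% and 17.7% of all genes). Under total-count scaling it was lower in 7 and higher in 7 (7.65% and 44.6% of all genes).

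Of 13 lineage transcription factors, 5 rose and 7 fell with JQ1 (27.6% and 31% of all genes). Cebpa fell from 8724, 10451 and 8997 to 1044, 926 and 792 (-3.35 ± 0.17), less than the -5.75 ± 0.19 without JQ1 (difference 2.40 ± 0.26, adjusted p = 3.13e-19). Pparg, of the lipid list, fell from 239, 233 and 252 to 18.8, 21.1 and 9.85. Tfec rose from 43.2, 36.5 and 46.7 to 326, 295 and 316, while its relative Mitf, at 1177, 1044 and 1043 and 1105, 1072 and 913, had no detected response (-0.08 ± 0.08 against 1.44 ± 0.08). Total-count scaling called Mitf as lower (-0.45).

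The BET proteins and the regulators of P-TEFb had a median response of 0.00 with JQ1. Of the 10, 4 were higher and 3 lower (27.6% and 31% of all genes). Brd2 had the largest response among them: LPS raised it from 14889.6, 15673 and 15385 to 62347, 64225 and 65932 with JQ1 and from 3927, 3822 and 3681 to 17219, 16759 and 15551 without. The responses were nearly equal, 2.07 ± 0.06 and 2.12 ± 0.06, with a difference of -0.05 ± 0.08 (adjusted p = 0.669), which total-count scaling put at 0.51. JQ1 alone had raised it by 2.01 ± 0.06 at rest. Cdk9, the kinase of P-TEFb, fell by -0.37 ± 0.08. Hexim1, the inhibitor of P-TEFb, stood at 3157, 3116 and 3038 and 3098, 2591 and 2835 with JQ1 (not called, and -0.50, called as lower, under total-count scaling). It fell by -1.36 ± 0.10 without JQ1 (difference 1.23 ± 0.13, adjusted p = 1.48e-18). Myc rose from 84.8, 70.0 and 93.4 to 353, 269 and 362, more steeply than without JQ1 (1.98 ± 0.19 against 0.53 ± 0.17, difference 1.45 ± 0.26, adjusted p = 1.49e-07), and its level during LPS was 328 ± 51.6 with and 419 ± 49.8 without JQ1.

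Metabolic genes moved less. Of 19 glycolysis genes, 13 rose and 2 fell with JQ1 (27.6% and 31% of all genes), at a median of 0.47 against 1.01 without. Under total-count scaling 6 and 6 passed (16.2% and 47.1% of all genes). Slc2a1, the glucose transporter GLUT1, rose from 539.6, 513 and 487 to 2242, 2116 and 2261 (2.10 ± 0.11, against 2.15 ± 0.11). Hk2 rose by 1.81 ± 0.08 against 2.46 ± 0.08 (difference -0.65 ± 0.12, adjusted p = 2.21e-07, and -0.10 with the call lost under total-count scaling) and Pfkp by 2.03 ± 0.08 against 2.87 ± 0.07. Pkm, at 22362, 24514 and 23752 and 23685, 23339.7 and 24246, had a change of 0.01 ± 0.09, and of -0.36 under total-count scaling. JQ1 had lowered 18 of 22 cholesterol synthesis genes at rest, against 3247 of 13686 genes in all. Their median response to LPS was -0.02 with JQ1 and 0.49 without. With JQ1, 9 were higher and 4 lower (27.6% and 31% of all genes). Dhcr7, the enzyme of the last step to cholesterol, fell by -1.76 ± 0.15 against -2.35 ± 0.16.

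Among 14 genes of the integrated stress and unfolded protein responses, the difference passed as higher in 9 and as lower in 3, against 17.7% and 23.8% of all genes. Under total-count scaling it passed in 11 and 3, against 44.6% and 7.65% of all genes. Their median response was 0.53 with JQ1 and 0.01 without. Atf4, the transcription factor at the centre of the stress response, rose from 1417, 1472 and 1441 to 4678, 4502 and 4505 with JQ1 and from 1259, 1235 and 1247 to 2782, 2830.0 and 2645 without (difference 0.52 ± 0.08, adjusted p = 1.38e-10). Herpud1, an endoplasmic reticulum protein, rose from 252, 198 and 257 to 1109, 1022 and 1099 (2.19 ± 0.11 against 1.28 ± 0.12), and asparagine synthetase Asns from 104, 119 and 109 to 499, 482 and 357. Sesn2 stood at 376, 383 and 364 and 413, 408 and 407 with JQ1 and fell by -1.74 ± 0.17 without. Xbp1 went the other way, with a response of 0.14 ± 0.07 (adjusted p = 0.0543) in place of 0.98 ± 0.07, which turned to -0.23 under total-count scaling.

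Cell cycle and replication genes fell in both conditions, 20 of 25 with JQ1 and 21 without, at medians of -1.63 and -1.58. The helicase subunits Mcm7 and Mcm4 fell by -1.44 ± 0.20 and -1.22 ± 0.15, Top2a by -1.21 ± 0.21 and E2f1 by -1.03 ± 0.13 against -2.10 ± 0.14 without JQ1. JQ1 alone had already lowered 24 of the 25, against 3247 of 13686 genes in all. Mki67, the Ki-67 gene, was 1 of 4 that rose without JQ1, from 1479, 1387 and 1701 to 7909, 6313 and 7433. With JQ1 it was at 624, 649 and 616 and 804, 717 and 777 (0.28 ± 0.13, adjusted p = 0.0531, and 0.33 with an adjusted p of 0.0245 in edgeR).

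Of the large housekeeping complexes, 34 of 38 proteasome subunits rose with JQ1 (median 0.68) and 34 without (0.87), or 23 with JQ1 under total-count scaling. The immunoproteasome subunits led them, Psmb9 from 144, 169 and 187 to 1109, 1214 and 1277 (2.85 ± 0.15), Psmb10 by 2.80 ± 0.14 and Psmb8 by 2.63 ± 0.11, and Psmc1 did not pass (0.07 ± 0.06, -0.30 under total-count scaling). Cytosolic ribosomal protein genes hardly moved, with 11 of 83 higher and 1 lower (27.6% and 31% of all genes) at a median of 0.06. Under total-count scaling 1 was higher and 64 lower (16.2% and 47.1% of all genes). Of 79 oxidative phosphorylation subunits, 22 were higher and 10 lower, and 1 and 41 under total-count scaling. The 22 higher were near the share of all genes, as were the 41 lower.

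**Figure D4:**
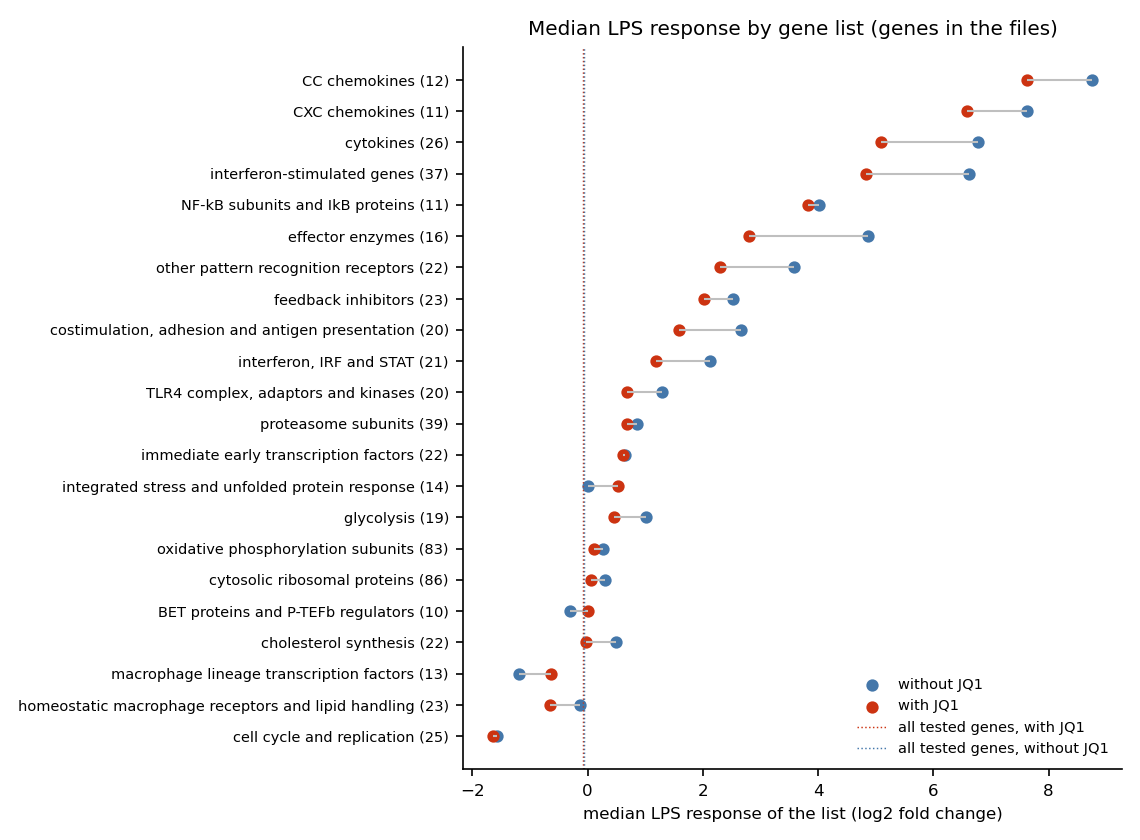
Median LPS response (log2 fold change) of 22 gene lists with JQ1 (red) and without (blue), ordered by the response with JQ1, with the number of genes in the files in brackets and dotted lines at the medians of all tested genes. The inflammatory lists keep their place to the right of the dotted lines with JQ1 and lie left of their own value without it, and the NF-kB and immediate early lists show the smallest gaps among them.

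The response with JQ1 was next set against the response without it gene by gene. Without JQ1, 2459 genes whose normalised count averaged 10 or more rose over 2-fold, and 2145 of them (87.2%) were still higher with LPS in JQ1-pretreated cells. The largest class, 1380 genes (56.1%), rose significantly less than without JQ1, with a median log2 response of 1.09 in place of 2.05. Another 689 rose with no detected difference, at 2.21 and 2.40, and 76 rose more, at 2.87 and 2.07. The rise was lost in 204 genes (8.30%), at medians of 0.09 and 1.59, and turned into a fall in 37, at -0.67 and 1.32. For the remaining 73, among them Ly96, the MD-2 gene (50.2, 34.5 and 37.5 and 43.1, 84.2 and 51.7), neither test passed. Since the genes were chosen on their response without JQ1, the medians were also taken with the genes chosen in the libraries of 2 replicate numbers and read in the third. They were then 1.27, 1.38 and 1.29 with JQ1 and 2.08, 2.19 and 2.22 without, with median differences of -0.76, -0.79 and -0.89.

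The median response of the 2459 genes was 1.22 with JQ1 (1.17, 1.24 and 1.18 in the 3 same-numbered pairs) and 2.03 without. The size of the difference rests on the scaling: its median was -0.76, with 1621 genes lower and 76 higher, and -0.21 under total-count scaling, with 796 lower and 289 higher. Set against the median expressed gene of the same fit, the difference was -0.71 with median-of-ratios and with total-count factors, and -0.68 in limma on log2(TPM + 1). Taking off that median removes a shift common to all genes, which is nearly all that other size factors bring. The near-equal values are therefore given by construction and do not test the scaling. Of 1213 genes with a log2 response of 1 to 2 without JQ1, 82.5% were still higher and 68.8% rose significantly less. Their median response was 1.37 without JQ1 and 0.74 with it. Of 76 genes over 8, 97.4% were still higher and 38.2% rose significantly less, at medians of 9.24 and 8.14. Such shares depend on how readily each test passes, so they do not show that steeper responses lost less.

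The class with no detected difference had a median difference of -0.21 between the responses, negative in each of the 3 same-numbered sets (-0.13, -0.26 and -0.34). Its genes were chosen on their response without JQ1, and this median was not read in held-out libraries. Nor was it taken under total-count scaling, which moved the median difference of all expressed genes from -0.05 to 0.50. Levels in the class differed too. In these 689 genes JQ1 had lowered 298 and raised 75 at rest, against 3247 and 3001 of 13686 genes in all. During LPS 442 were lower with JQ1 and 69 higher, against 4718 and 3491 of 14326 genes, and 279 were lower at both. The median effects of JQ1 in the class were -0.46 at rest and -0.69 during LPS. The 1380 genes that rose less had a median effect of 0.07 at rest and -0.86 during LPS, and the 204 that lost their rise had 0.01 and -1.66. In the 76 that rose more the medians were -0.76 at rest and -0.02 during LPS, as in the example of Nlrp3 for the lowered baseline. The difference is the effect of JQ1 during LPS less that at rest. In classes defined by a passing difference, the gap between these effects is therefore given by construction.

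**Figure D5:**
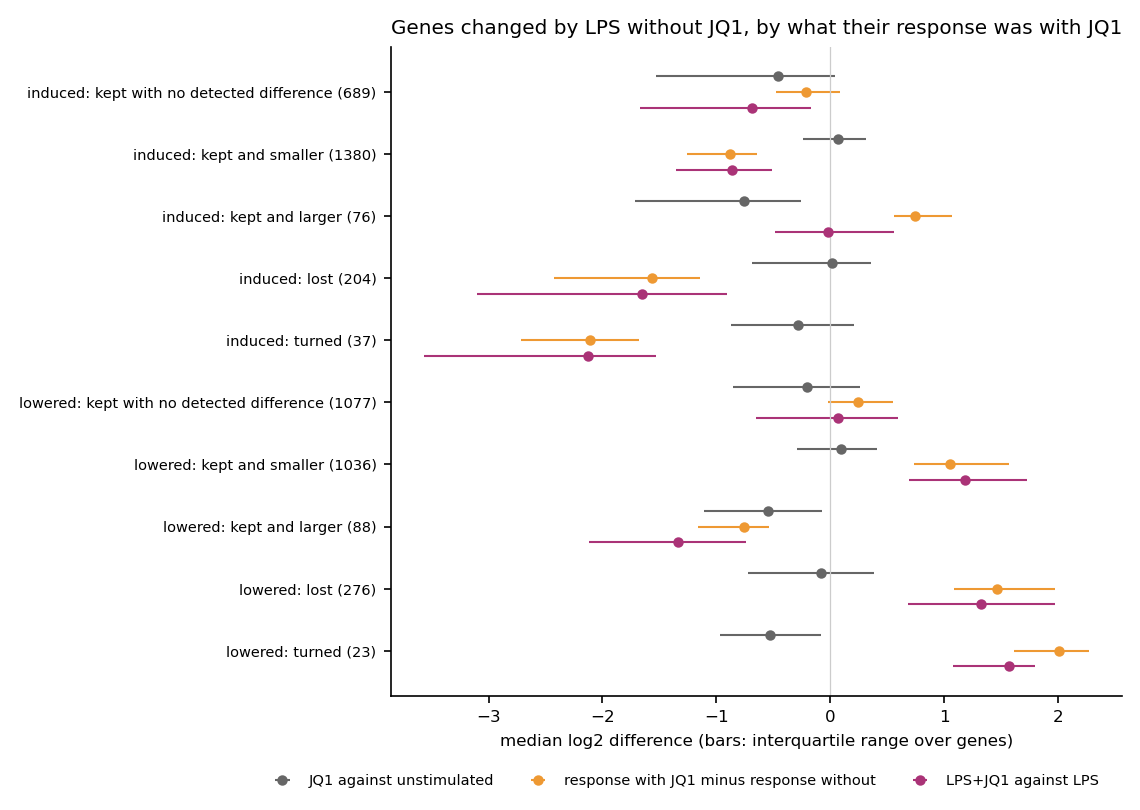
Median log2 effect of JQ1 at rest (grey), the difference between the responses (orange) and the effect of JQ1 during LPS (purple) for the classes of genes induced or lowered by LPS without JQ1, with bars for the interquartile range over genes and the number of genes in brackets. The classes were defined by the difference, so its place and the gap between the effects at rest and during LPS are given by construction. In the class of induced genes with no detected difference the effects at rest and during LPS both lie below 0.

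Most falls were kept as well. Of 2661 genes that fell over 2-fold without JQ1, 2201 (82.7%) still fell with JQ1, 1036 of them significantly less (medians -1.04 and -2.18) and 88 more. The fall was lost in 276 and turned into a rise in 23. The median response of the 2661 genes was -1.14 with JQ1 and -1.81 without. Across all 11390 expressed genes the responses had a Pearson correlation of 0.83, a description over genes that share libraries and depth.

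Seen from the other side, 1404 of the 1555 genes induced over 2-fold with JQ1 were also induced over 2-fold without it, which is 90.3% of the first list and 57.1% of the 2459. For 44 genes the rise passed with JQ1 and not without, and the difference passed too. Of these, 5 named after their values were seen serve as examples. Slc35e4, of a solute carrier family, went from 392, 428 and 478 to 1440.1, 1292 and 1459 with JQ1 and from 379, 357 and 382 to 438, 389 and 356 without, and Baiap2, an adaptor of the actin cytoskeleton, from 567, 672 and 604 to 1704, 1783 and 1885 and from 294, 431 and 333 to 380.3, 429 and 265. Grk5, a receptor kinase, rose by 1.49 ± 0.10 against -0.67 ± 0.13, Ksr1, a scaffold of the ERK pathway, by 1.53 ± 0.20 against -1.79 ± 0.28, and Id1, an inhibitor of basic helix-loop-helix factors, by 1.46 ± 0.20 against 0.14 ± 0.19. In the opposite direction, 75 genes fell over 2-fold with JQ1 only, the difference passing. Among them were Cmklr1, the chemerin receptor (-2.39 ± 0.27 against 0.69 ± 0.16), the phosphatase Ptpro (-2.34 ± 0.19 against 0.65 ± 0.10), the RNA sensor Tlr8 (2651, 2625 and 2492 to 530.1, 874 and 596) and the pseudokinase Trib1 (-1.89 ± 0.11 against 0.08 ± 0.09), also named after their values were seen.

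Genes that turned their direction, named on the same basis, included Rgs1, a regulator of chemokine receptor signalling, which rose from 574, 565 and 719 to 2339, 2472 and 3568 without JQ1 and fell from 403, 321 and 357 to 180.0, 204 and 169.9 with it. The Notch ligand Jag1 (difference -2.73 ± 0.19), Cd33 (-2.52 ± 0.37) and Tsc22d1 (-2.40 ± 0.18) did the same. Trib3, a target of ATF4, went the other way, falling from 44, 44 and 38.9 to 4.24, 5.17 and 3.68 without JQ1 and rising from 32.9, 38.4 and 47.6 to 76.2, 72.7 and 76.3 with it (adjusted p = 9.15e-04, 0.075 without replicate 1, and not called under total-count scaling), and so did Rapgef5 (2.23 ± 0.17).

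The most negative differences, among genes whose normalised count averaged 100 or more in the 12 libraries of the 4 groups, were those of genes that LPS induced without JQ1 and that held far fewer counts during LPS with it. Edn1, the endothelin 1 precursor (chr13:42396639-42403358, mm9, plus strand), reached 4.42, 5.27 and 6.15 with JQ1 and 2674, 2802 and 3748 without, from at most 1 count per library at rest (difference -9.14 ± 1.72, adjusted p = 8.21e-07). Kdr, the VEGF receptor 2 gene (chr5:76328852-76374483, minus strand), stood at 10.4, 6.9 and 6.41 and 2.21, 5.27 and 2.46 with JQ1 (-1.24 ± 0.57, adjusted p = 0.0502, and called as lower in edgeR at -1.17 and under total-count scaling at -1.61), and went from 18.5, 23.7 and 15.4 to 513, 539 and 545 without. Clcf1, a cytokine of the IL-6 family (chr19:4214238-4223490), stood at 8.65, 6.9 and 2.75 and 9.94, 7.45 and 12 with JQ1, against 909, 705 and 732 with LPS alone. Every LPS + JQ1 library was below every LPS library in the 3 genes. The others were Il12a and Ccl12, above, Pdgfrb, a growth factor receptor (-5.37 ± 0.38), Lipg, endothelial lipase (-5.08 ± 1.67), and Fpr1, the formyl peptide receptor (-4.98 ± 1.47). In edgeR the calls of Lipg (-4.16, adjusted p = 0.908) and Fpr1 (-4.77, adjusted p = 0.0885) were lost. Pdgfrb, with 13.8, 23.7 and 23.8 in JQ1 cells, is also one of the stromal markers. The fitted differences of Edn1, Il12a and Lipg, with 0 or 1 count at rest, are not determined in size.

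The most positive differences were of both kinds. Adamts4, Il7, Olr1 and Slc13a3 were induced more steeply with JQ1: Olr1, the oxidised LDL receptor LOX-1, went from 1.73, 1.97 and 0.916 to 2081, 2894 and 2222 with JQ1 and from 4.63, 6.77 and 4.02 to 417, 473 and 499.7 without (difference 4.00 ± 0.76, adjusted p = 1.15e-06), and Slc13a3, a dicarboxylate transporter, from 3.46, 9.86 and 6.41 to 599, 471 and 624 and from 36.3, 27.1 and 17.4 to 188, 215 and 189 (3.55 ± 0.42). Mknk2, Narf, Bmf and Zfp395 fell less. Mknk2, a kinase of the translation factor eIF4E, went from 6564, 7088 and 6899.9 to 3417, 3081 and 3485 with JQ1 and from 3035, 3429.9 and 3189 to 127, 131 and 98.2 without (difference 3.71 ± 0.14, adjusted p = 1.49e-159). Narf went from 425, 392 and 431 to 283, 303 and 268 with JQ1 and from 377, 391 and 365 to 14.1, 9.31 and 13.5 without, and the pro-apoptotic Bmf and Zfp395 differed by 3.61 ± 0.69 and 3.50 ± 0.49.

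The promoter sequence of genes from the opposite ends of this range is shown next, since the binding sites of NF-kB and of the interferon factors lie there in many LPS-induced genes. Each is the 250 bases before the start of the gene, 5′ to 3′ on the gene's strand, from RefSeq on GRCm38.p6. Capitals mark matches, on either strand, to GGNNNTTCC (NF-kB), GAAANNGAA (the interferon response element, ISRE), TGANTCA (AP-1) or TATAAA. By fitted log2 fold change, Ccl22 (chr8:94745434-94745683, plus strand) and Mab21l3 (chr3:101836224-101836473, minus strand) led the ranked rises of the class with no detected difference. Neither had a count in JQ1 cells, so the size of these folds, and with it their rank, is not determined. Edn1 (chr13:42301226-42301475, plus strand) had the most negative difference of the class that rose less, and Kdr (chr5:75978456-75978705, minus strand) that of the class that lost its rise. Nfkbia (chr12:55492648-55492897, minus strand) and Rsad2 (chr12:26456453-26456702, minus strand), of the first class, and Il12a (chr3:68690394-68690643, plus strand), of the second, were added after their values were seen.
Nfkbia: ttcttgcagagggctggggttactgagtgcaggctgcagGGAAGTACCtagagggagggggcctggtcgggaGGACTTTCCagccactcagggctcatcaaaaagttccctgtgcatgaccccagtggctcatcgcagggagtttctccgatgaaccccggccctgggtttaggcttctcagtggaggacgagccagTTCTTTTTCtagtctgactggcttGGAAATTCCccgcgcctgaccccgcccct
Rsad2: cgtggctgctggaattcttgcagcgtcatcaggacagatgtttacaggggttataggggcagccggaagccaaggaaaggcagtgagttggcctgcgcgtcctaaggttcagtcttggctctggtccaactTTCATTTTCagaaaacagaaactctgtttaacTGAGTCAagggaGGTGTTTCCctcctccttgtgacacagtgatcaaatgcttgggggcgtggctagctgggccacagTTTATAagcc
Ccl22: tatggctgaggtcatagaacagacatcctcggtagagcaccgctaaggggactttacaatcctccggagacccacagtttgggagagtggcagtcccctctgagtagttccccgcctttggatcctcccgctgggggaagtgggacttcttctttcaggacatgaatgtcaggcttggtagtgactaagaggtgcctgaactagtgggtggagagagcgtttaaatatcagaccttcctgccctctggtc
Mab21l3: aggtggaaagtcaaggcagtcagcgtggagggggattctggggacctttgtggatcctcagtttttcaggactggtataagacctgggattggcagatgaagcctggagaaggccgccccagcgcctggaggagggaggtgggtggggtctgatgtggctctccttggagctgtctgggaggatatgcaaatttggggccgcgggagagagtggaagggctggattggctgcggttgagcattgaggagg
Il12a: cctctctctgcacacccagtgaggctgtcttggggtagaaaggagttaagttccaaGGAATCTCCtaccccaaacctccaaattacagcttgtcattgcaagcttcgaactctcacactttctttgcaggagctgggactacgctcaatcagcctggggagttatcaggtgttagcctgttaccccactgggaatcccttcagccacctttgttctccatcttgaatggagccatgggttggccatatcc
Edn1: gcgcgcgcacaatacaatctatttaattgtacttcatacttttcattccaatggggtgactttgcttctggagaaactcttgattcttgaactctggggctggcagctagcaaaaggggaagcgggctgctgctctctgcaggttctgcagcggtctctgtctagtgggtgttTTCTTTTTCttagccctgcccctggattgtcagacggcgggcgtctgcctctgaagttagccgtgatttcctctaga
Kdr: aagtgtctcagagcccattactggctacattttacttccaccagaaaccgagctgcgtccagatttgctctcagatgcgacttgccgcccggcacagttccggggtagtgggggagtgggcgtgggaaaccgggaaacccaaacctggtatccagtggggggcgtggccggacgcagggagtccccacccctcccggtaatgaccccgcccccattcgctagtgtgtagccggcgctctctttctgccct

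In these windows Nfkbia held 3 NF-kB matches, from -211 to -203, -178 to -170 and -29 to -21 counted back from the start, and an ISRE match from -53 to -45. Rsad2 held an ISRE match from -119 to -111, an AP-1 match from -87 to -81, an NF-kB match from -75 to -67 and a TATA match from -10 to -5. Il12a held 1 NF-kB match, from -194 to -186, and Edn1 1 ISRE match, from -77 to -69, and the letters searched were not in the windows of Ccl22, Mab21l3 and Kdr. An NF-kB match was present in 18.8%, an ISRE in 6.53%, an AP-1 in 4.15% and a TATA in 6.23% of the 9151 expressed genes with a promoter in the table (of 11390). Over all 18138 promoters of the table that matched a gene of the files, 16.1% held an NF-kB, 6.97% an ISRE, 6.53% an AP-1 and 12.1% a TATA match. A comparison of the shares between the classes was void, since 77.1% of the genes in the class with no detected difference had a sequence, too few to stand for it.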

How the data were processed

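Total RNA libraries (KAPA stranded kit with ribosomal RNA removal) were aligned to mm9 with STAR and quantified with RSEM 1.2.31 by the authors, who deposited expected counts and TPM per gene and library. Expected counts (5.40% to 6.63% of entries not whole) were rounded, and genes were tested with DESeq2 1.42.0 (R 4.3.3, Wald test, all 18 libraries, a term for group alone, size factors from medians of ratios). Normalised counts are counts divided by those factors. Alternatives used edgeR 4.0.16, TMM or total-count factors, count filters, and limma 3.58.1 on log2(TPM + 1) or log2(TPM + 0.1) of the deposited TPM (mean of at least 1), and the scripts were tested on simulated data.

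The labels give 3 mice and replicate numbers 1 to 3 but do not say that a number marks a mouse, so the numbers were not taken as pairs and a replicate block was an alternative. All replicate 1 libraries ran on lane 7 and all replicate 3 on lane 8, while replicate 2 ran on lane 7 without LPS and 8 with it. Each DESeq2 p-value compares groups of 3 libraries, with a spread estimated over all 18 libraries of the fit. Intervals and floors cover counting error only.

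Genes, gene lists and tests were chosen with earlier results of these data known. Named genes are Il10, the 10 largest rises and falls (normalised count averaging 100 or more, 1 direction in all same-numbered pairs), up to 4 called members and up to 2 others per list, the 8 largest differences each way, genes that the study discusses, and Brd2, Hexim1 and Myc; some genes that this rule names are not reported here. Gene positions are GENCODE vM1 on mm9. Promoters are RefSeq on GRCm38.p6, matched by transcript accession. The 6 libraries with IL-10 entered the fit and were not analysed further.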

Additional observations from a re-analysis of the deposited data

Results flagged for a closer look

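70 genes named in the text are listed again because their response to LPS differed between cells with and without JQ1, by the DESeq2 test of the difference itself (interaction, adjusted p under 0.05, 3 libraries in each of 4 groups). Values are log2 differences, response with JQ1 minus response without. The response was more negative with JQ1 for 44 genes and more positive for 26. Most of these genes were picked for the size of a response or of this difference, so their number says nothing about other genes.

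Among pattern recognition, adaptors and their regulators, the differences were Tlr8 -2.60, Nfkbiz -1.69, Tlr6 -1.66, Clec4d -1.46, Ifih1 -1.40, Myd88 -1.22, Nod2 -1.16, Tlr1 -0.95, Irak2 -0.79 and Tlr4 -0.78. Among cytokines and chemokines, the differences were Edn1 -9.14, Clcf1 -5.97, Ccl24 -5.87, Il12a -5.59, Ccl12 -4.90, Tnf -1.39 and Ccl4 -0.67. Among other receptors and surface ligands, the differences were Kdr -6.11, Pdgfrb -5.37, Fpr1 -4.98, Fcgr2b -3.18, Cmklr1 -3.08, Ptpro -2.99, Cd80 -2.94, Jag1 -2.73, Cd33 -2.52, Mertk -1.95 and Fcgr1 -1.46. Among signalling and feedback proteins, the differences were Rgs1 -3.13, Trib1 -1.97, Socs1 -1.65, Jak2 -1.15 and Dusp2 -0.75. Among transcription factors, the differences were Fosl2 -2.47, Tsc22d1 -2.40, Mitf -1.52, Xbp1 -0.84 and Fos -0.68. Among enzymes, transporters and other proteins, the differences were Lipg -5.08, Slc7a2 -2.35, Mki67 -1.96, Rnf144b -1.87, Abca1 -1.24 and Hk2 -0.65.

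On the positive side, the differences among cytokines, receptors and surface ligands were Il7 4.94, Olr1 4.00, Cd274 0.83 and Nlrp3 0.81. Among transcriptional regulators they were Zfp395 3.50, Cebpa 2.40, Myc 1.45, Id1 1.33, Klf2 1.30, Hexim1 1.23, E2f1 1.07 and Atf4 0.52. Among kinases, scaffolds and signalling proteins they were Trib3 4.17, Mknk2 3.71, Ksr1 3.32, Rapgef5 2.23, Grk5 2.16 and Baiap2 1.504. Among other genes they were Adamts4 4.52, Narf 4.42, Bmf 3.61, Slc13a3 3.55, Mx1 2.01, Sesn2 1.87, Slc35e4 1.62 and Herpud1 0.91. Edn1, Il12a, Lipg, Il7, Adamts4, Fpr1, Ccl12, Olr1, Ccl24, Cd80, Clcf1, Kdr and Slc13a3 averaged fewer than 10 normalised counts in a baseline group, so their fitted differences are uncertain in size.

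Of the 70 calls, 53 held in each of the 28 other settings in which the gene was tested and 17 were lost in some. That of Ccl4 was lost in 12 settings, that of Mx1 in 12, of Tlr4 in 11, of Fos in 8, of Rnf144b in 7, of Cd274 in 5, of Dusp2 and Hk2 in 4 each, and of Tlr1 in 3. The difference of Fos was -0.57 in edgeR (adjusted p = 0.0563), -0.55 under TMM (adjusted p = 0.0536), -0.12 under total-count scaling and -0.02 in limma on log2(TPM + 1). In edgeR those of Il12a (adjusted p = 0.971), Lipg (adjusted p = 0.908) and Fpr1 (adjusted p = 0.0885) were lost too, and under total-count scaling that of Nod2 (-0.60). The difference of Mx1 was lost in 9 of the 15 settings that left out libraries, and was 0.74 (adjusted p = 0.0785) without unstimulated replicate 1, the library that was highest of its group in each of the 35 interferon-stimulated genes. That of Cd80 was -1.27 (adjusted p = 0.35) without JQ1 replicate 1, that of Fpr1 -3.63 without the same library, and that of Ccl12 -3.49 without JQ1 replicate 3, each with the call lost. Without replicate 3 in any group the calls of Adamts4 (3.95), Il12a (-4.56), Lipg (-4.55), Ccl12 (-2.36) and Nod2 (-0.99) were lost, without replicate 2 that of Socs1 (-1.22), and without replicate 1 those of Tlr1 (-0.75) and Rnf144b (-0.996).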

How the results depend on the processing

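The results were recomputed under 28 other settings. The counts of changed, higher and lower genes, and of genes still higher, stayed within 1.5 times of their values with the replicate number as a block (3804 higher and 4249 lower), with lane, with both, with edgeR, with TMM factors and with the other filters. With the block Cd36 (-0.56), Mki67 (0.28), Pf4 (0.16) and Xbp1 (0.14) also passed, and no other call of a named gene changed. Deviations of same-numbered JQ1 and LPS + JQ1 libraries correlated at 0.080, 0.083 and 0.115, each above those of different numbers (-0.10 to 0.01). Same-numbered unstimulated and LPS libraries correlated at 0.118, 0.112 and 0.151, and different numbers at up to -0.007. For unstimulated and JQ1 libraries the values were 0.182, 0.097 and 0.080, and up to 0.014. Same-numbered LPS and LPS + JQ1 libraries correlated at 0.07, -0.06 and -0.12 and different numbers at up to 0.18. Same numbers thus stood higher in each pair of groups but the last, and pairing by number is not settled.

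Total-count scaling gave 2274 higher and 6599 lower, 5964 and 1023 differences higher and lower, and 1134 induced genes still higher, with the induced genes chosen anew. On log2(TPM + 1) limma gave 2408 higher, 5407 and 1103 differences, and 1123 still higher, on log2(TPM + 0.1) 2420, 5221, 1016 and 1184, and with no filter 2520, 5755, 1294 and 1141. The median response of the induced genes with JQ1 moved from 1.22 to 1.33 with edgeR, 1.34 with TMM, 1.77 with total-count scaling, 1.129 with at least 10 counts in every library compared, 1.28 with the compared groups alone, and 1.43, 1.67 and 1.38 in the 3 limma fits. It ranged from 1.18 to 1.27 when libraries were left out. Those fits gave 6269 to 8065 changed genes, 3150 to 3833 higher, 3119 to 4232 lower, 2025 to 2158 still higher, and 3471 to 5014 differences, 1288 to 2135 higher and 2183 to 2915 lower, with the lowest counts mostly from leaving out 1 replicate number in every group.

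Directions turned for Brd2 (difference 0.51 with total counts, 0.46, 0.45 and 0.46 with limma), Nfkbia (difference 0.42), Clec4d (-0.35), Dusp1 (-0.36), Pf4 (-0.21), Tgfb1 (-0.21) and Xbp1 (-0.23) with total counts, for Pkm (-0.36, and -0.26 in each limma fit) and Psmc1 (-0.30, and -0.20), and in limma on log2(TPM + 1), with and without a filter, for Tlr4 (difference 0.075) and Rnf144b (difference 0.42). Apoe, Cd36, Hexim1, Irf3, Klf2 and Mitf, not called here, passed as lower with total counts. All of them but Klf2 also did in each limma fit, and Klf2 did in limma on log2(TPM + 1) with the filter. The total-count and TPM results go with the shift of the all-gene median, and which scaling holds was not tested. Genes with fewer than 10 counts at rest have folds that the depth cannot fix.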

Other observations

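Histone genes, a group not described above, were noticed in the list of large differences, and the 62 expressed genes with symbols starting Hist1h to Hist4h were then counted. Without JQ1, LPS lowered 55 of them and raised 3 (32.9% and 31.6% of all genes), with a median log2 response of -1.80. With JQ1, 17 were lower and 19 higher, near the 31% and 27.6% of all genes, with a median of 0.08. Under total-count scaling 9 were higher (16.2% of all genes) and the median was -0.30. The difference between the responses passed as higher in 48 and as lower in 2, with a median of 1.63, against 17.7% and 23.8% of all genes. Under total-count scaling it passed as higher in 54, against 44.6% of all genes. JQ1 alone had lowered 42 at rest and raised 8 (median -0.85), against 3247 and 3001 of 13686 genes in all. During LPS 42 were higher with JQ1 and 12 lower (median 1.01), against 3491 and 4718 of 14326 genes. The libraries were made from total RNA after ribosomal RNA removal, and near-identical histone genes share reads, so single members are uncertain. Hist1h2bq and Hist1h2br held equal counts in each library of the 4 groups, so the 62 are not all separate measurements. Calls as lower under total-count scaling were not counted.

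Of the genes without an adjusted p in DESeq2, Cfb, a complement factor, had a response that was smaller with JQ1 when unstimulated replicate 1 was left out (difference -4.27, adjusted p = 0.00076). Its LPS + JQ1 libraries held 43.1, 44.2 and 35.7 normalised counts and its LPS libraries 1904, 1959 and 1709. Gbp2 and Gbp5 had larger responses with JQ1 in the same fit (0.90 and 1.26, adjusted p = 0.0003 and 0.0023). The differences of Acod1 (1.42, adjusted p = 0.255), Cxcl10 (0.94, adjusted p = 0.094), Ccl5 (0.15, adjusted p = 0.94) and Saa3 (-0.03, adjusted p = 0.99) did not pass. In edgeR with every library, Gbp2 (2.80, adjusted p = 0.0049), Gbp5 (3.09, adjusted p = 0.0034), Cxcl10 (2.90, adjusted p = 0.013) and Acod1 (4.26, adjusted p = 0.045) passed as larger. There Cfb (-1.20, adjusted p = 0.67), Ccl5 (2.65, adjusted p = 0.067) and Saa3 (2.23, adjusted p = 0.18) did not pass. Calls of Cfb, Cxcl10 and Acod1 thus differed between these fits, which differ in test and in libraries.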
